A study of Laccaria bicolor with 18 samples.

Results

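Caps of late basidiocarps were compared with caps of early basidiocarps of the ectomycorrhizal basidiomycete *Laccaria bicolor*. The members are the 6 libraries of 18 that the labels give as cap and as either early or late, 3 of each. All libraries came from strain S238N, harvested in a nursery experiment beneath inoculated Douglas fir seedlings, with no treatment given. The other 12 libraries are 3 of medium caps and 9 of the stipes of the same stages, and they are used where they show how the caps differ. Total RNA was extracted by a CTAB and LiCl protocol, and stranded mRNA libraries were sequenced on an Illumina HiSeq2000.

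The cap of an agaric carries the gills, on which basidia undergo meiosis and bear basidiospores, and the stipe lifts it from the soil. Expansion of a cap involves the wall of its hyphae, a mesh of chitin and glucans that is remodelled by chitinases, glucanases and expansin-like proteins. Hydrophobins, small secreted proteins with conserved cysteines, coat fungal surfaces at the boundary with air.

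The 6 cap libraries held between 40879632 and 90888294 reads counted on gene models, and levels are in CPM, counts divided by TMM-scaled library size. The titles number the libraries within each group without saying whether each is a separate basidiocarp. A figure legend of the study counts fewer biological replicates of basidiocarps than there are libraries. Thus p-values measure the spread between these libraries, which may in part be technical. Late caps 2 and 3 were closer to each other than any other pair of caps, with a biological coefficient of variation of 4.05%. Their pairs with late cap 1 were at 9.3% and 9.73%, and pairs of early caps at 16.2% to 18.2%. Medium stipes 1 and 2 were nearly as close as late caps 2 and 3, at 4.16%. Both pairs enter the estimate of the spread. In RNA of whole tissue, fewer cells of a type and less RNA per cell cannot be told apart.

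Of 16485 gene models tested, 1528 were higher in late caps and 1009 were higher in early caps. Calls needed a log2 fold change of more than 1 in either direction and an adjusted p under 0.05, from the quasi-likelihood test of edgeR adjusted by the method of Benjamini and Hochberg. Thus 9.27% of gene models tested rose, 6.12% fell and 15.4% did either, and these shares are the background of the counts given for groups. The background of annotated gene models was higher. Of the 2915 tested with a functional annotation, 15% rose and 7.89% fell. Of the 332 tested with a RefSeq symbol, 8.13% rose and 7.53% fell. The median log2 fold change was 1.58 among the 1528 that rose and -1.33 among the 1009 that fell, against -0.05 over all gene models tested. A log2 fold change above 4 was found for 79 of the risers and was below -4 for 11 of the fallers. The libraries did not overlap between the groups for 1519 risers and 1003 fallers, while all late caps lay above all early caps for 30.4% and below them for 33.8% of all gene models tested. The risers took 5.85% to 7.26% of the reads of an early cap and 22.1% to 22.7% of those of a late cap. The fallers took 10.6% to 13.1% of reads in early and 3.07% to 3.16% in late caps.

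**Figure D1:**
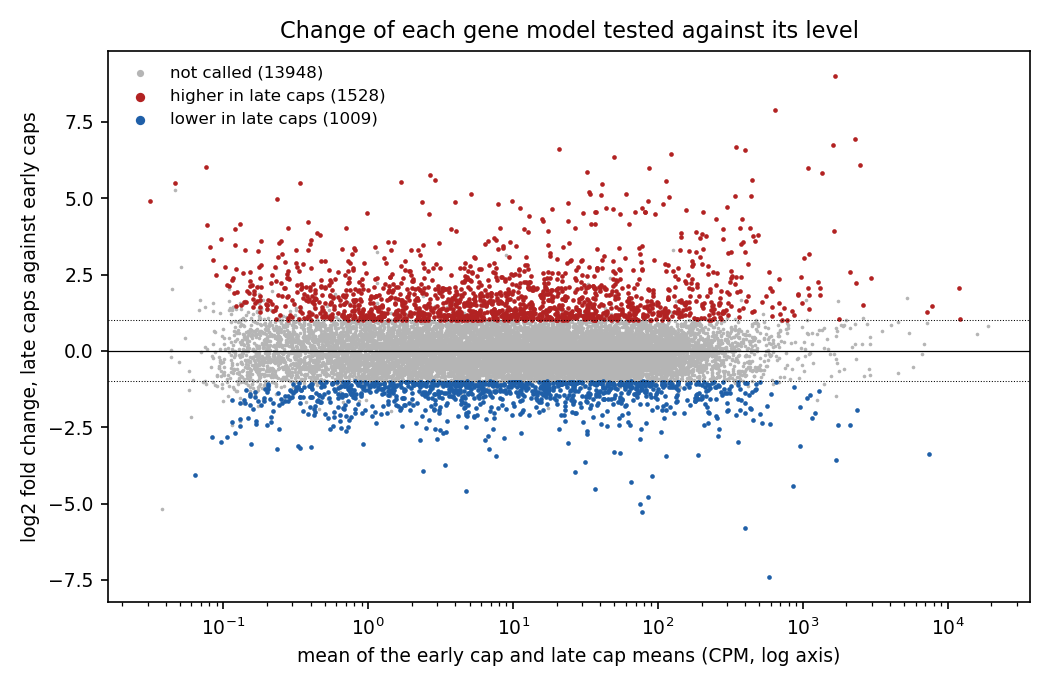
Log2 fold change of late against early caps (y axis) against the mean of the early cap and late cap means (x axis, CPM on a log axis), 1 point for each of the 16485 gene models tested. The 1528 gene models called higher and the 1009 called lower are coloured, and the points reach from -7.42 to 9.01.

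The largest rise was that of gene model 485347, for which no function was at hand. Its levels were 3.86, 4.93 and 10.4 CPM in early caps 1, 2 and 3, 610.5, 297 and 20.01 CPM in medium caps and 2573, 3702 and 3643 CPM in late caps. All late caps lay far above all early caps, and early cap 3 was the highest of the early ones. The log2 fold change was 9.01 (SE 1.37, adjusted p = 0.000141). A pepsin-type aspartic protease, 483465, rose from 5.35, 8.46 and 2.55 CPM to 1236, 1316 and 1292 CPM, by 7.88 on the log2 scale (SE 0.84, adjusted p = 5.63e-06). The groups did not overlap, and the 3 late caps were within a narrow band. Next among gene models with a functional annotation came 256071, a short-chain dehydrogenase/reductase. It was at 6.38, 8.92 and 4.802 CPM in early and 662, 702 and 692 CPM in late caps (log2 fold change 6.68, SE 0.57, adjusted p = 6.17e-07). A protein with an RNA recognition motif, 297745, was at 3.29, 3.43 and 1.78 CPM in early and 267, 239 and 228 CPM in late caps (log2 fold change 6.44). In both, each late cap was above each early cap, and the medium caps, at 351, 208 and 69.8 CPM and 48.4, 26.7 and 20.2 CPM, lay between. Further gene models with a functional annotation, for which being a small secreted protein was not enough, were among the 10 largest rises. They included a DUF89 protein (568771, log2 fold change 5.58), a zinc finger protein of the C2H2 type (453082, 5.46) and an L-aspartase-like protein (330474, 5.14).

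The deepest fall was that of LbH11 (180892), a hydrophobin. It was at 916, 991 and 1586 CPM in early caps, 53.2, 114 and 146 CPM in medium caps and 7.77, 6.72 and 5.92 CPM in late caps. Thus late caps held less than any early or medium cap, and early cap 3 held the most. The log2 fold change was -7.42 (SE 0.49, adjusted p = 1.63e-07), a level 171-fold lower in late caps. A gene model without known function, 706368, followed another course, with 636, 813 and 892 CPM in early, 744, 886 and 1155 CPM in medium and 10.9, 15.8 and 15.5 CPM in late caps. Its medium caps were as high as its early caps, and its fall of 5.80 on the log2 scale (SE 0.46, adjusted p = 4.01e-07) came between medium and late. A SnoaL/NTF2-like protein, 448570, was at 131, 149 and 174 CPM in early and 4.22, 4.26 and 3.32 CPM in late caps (log2 fold change -5.26, SE 0.75, adjusted p = 7.82e-05). A protein with a WSC domain, 508527, was at 119, 189.5 and 188 CPM and 4.28, 6.998 and 6.61 CPM (log2 fold change -4.80). Both were lower in every late cap than in any early cap. Other large falls, given as log2 fold changes, were those of the small secreted proteins 705940 (-5.02) and 316267 (-4.11), an isoprenylcysteine carboxyl methyltransferase (483834, -3.46), a protein with a CBM52 module (661527, -3.43) and a zinc finger transcription factor (620550, -2.73).

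**Figure D2:**
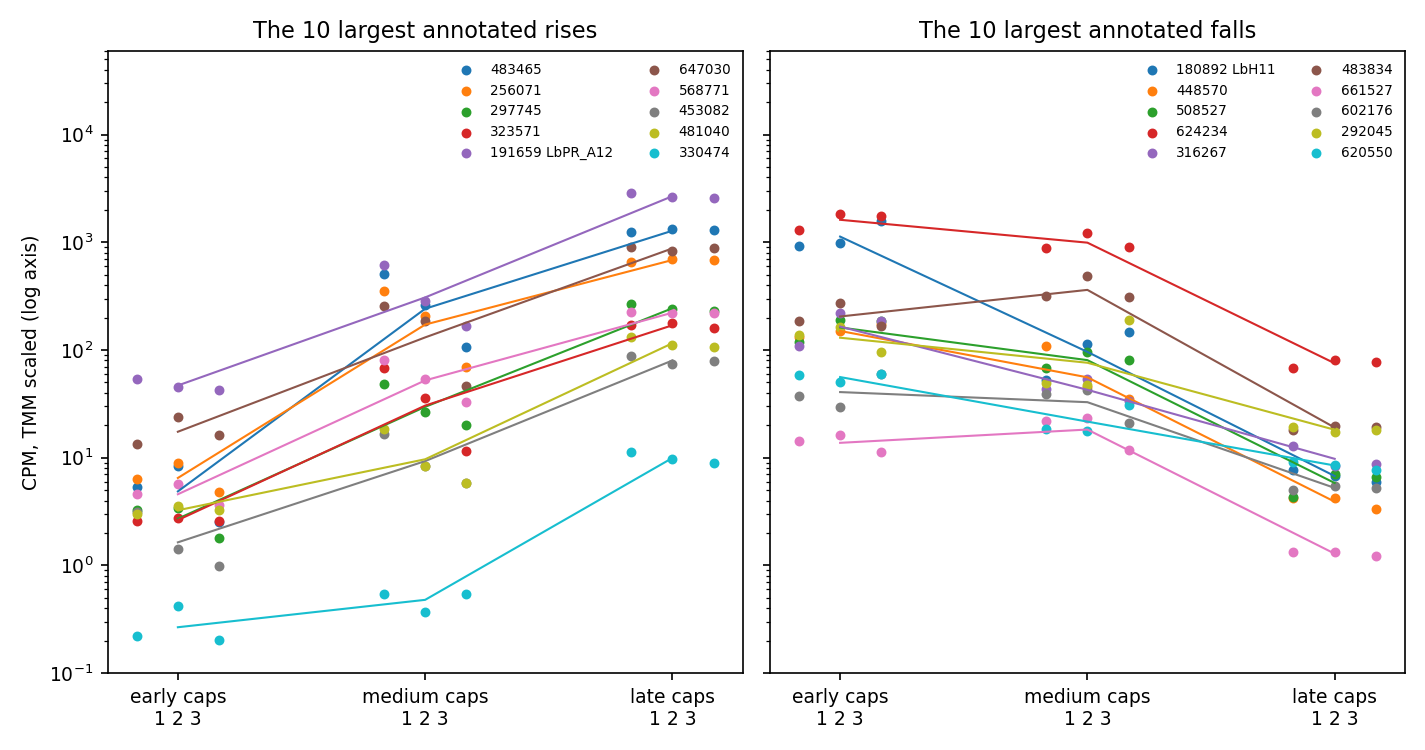
Levels (y axis, CPM on a log axis) in each early, medium and late cap library (x axis) of the 10 functionally annotated gene models with the largest rises (left) and the 10 with the largest falls (right). Points are libraries, with a colour for each gene model, and lines join the geometric means of the stages. For 483465 the early caps lie between 2.55 and 8.46 CPM and the late caps between 1236 and 1316 CPM, and for LbH11 the order is turned, with the late caps lowest.

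Among the gene models that rose, a small secreted protein, 659853, held the largest share of a late cap's reads. It was at 3505, 4069 and 6282 CPM in early caps, 17100, 11781 and 5151 CPM in medium caps and 17550, 19873 and 20444 CPM in late caps. The late caps were alike and above the early caps, while medium caps 1 and 3 stood wide apart. Its log2 fold change was 2.06 (SE 0.50, adjusted p = 0.00463). Gene models 459717 and 693754, with no function at hand, reached 5028, 4329 and 4306 CPM and 5409, 4634 and 4609 CPM in late caps from 56.5, 43.1 and 11.6 CPM and 91.9, 96.1 and 28.2 CPM in early caps (log2 fold changes 6.94 and 6.08). In both, early cap 3 was the lowest library. LbCipC1 (399510) rose from 916, 411 and 1118 CPM to 3500, 4117 and 3920 CPM (log2 fold change 2.24), with no overlap although early cap 2 was below the other early caps. Of the gene models that fell, 654325 was the most abundant in early caps, at 10829, 14524 and 15355 CPM. It had 10825, 10218 and 10421 CPM in medium and 1328, 1319 and 1236 CPM in late caps, a fall of 3.39 on the log2 scale (SE 0.53, adjusted p = 0.000165), so that the medium caps resembled the early ones.

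Gene groups are given by their number of members tested and their median log2 fold change. These are to be read beside 9.27% rising, 6.12% falling and a median of -0.05 over all gene models. Of the 16485 gene models tested, 8807 had a log2 fold change below 0 and 7678 above 0. At an unadjusted p under 0.05 in the edgeR test, 4029 were below 0 and 3483 above, the background of such counts. Members of the wall enzyme families, expansin-like proteins, hydrophobins, thaumatin-like proteins, lectins, protease inhibitors, tyrosinases, laccases, AA3 enzymes, cyclins and the *C. cinerea* group came in part from tables of gene models chosen by the stage of the basidiocarp. There, 26.7% of 1331 gene models tested rose and 6.99% fell, while 7.91% of the 2098 found in other tables alone rose and 8.72% fell. A group's count is thus no independent evidence of its direction, and for these groups the count among members that also stand in tables not chosen by stage is given too. One of the latter tables was itself chosen on basidiocarps against mycelium. Where a group is given as having no gene model called in a direction, DESeq2 called none there either.

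Copper radical oxidases, expansin-like proteins and GH18 chitinases each rose in most of their members. Of 8 copper radical oxidases of family AA5, relatives of galactose and glyoxal oxidases, 6 rose and none fell, with no member below 0 at an unadjusted p under 0.05 (median 2.05), and of the 7 that also stand in tables not chosen by stage 6 rose. The largest rise was that of 638550, with 60.5, 76.5 and 52.4 CPM in early, 118, 65.1 and 82.6 CPM in medium and 980.3, 792 and 772 CPM in late caps. The medium caps resembled the early caps, and the late caps were far above both. Its log2 fold change was 3.75 (SE 0.43, adjusted p = 1.01e-05). The others that rose were 151571 (3.44), 457469 (2.72), 312895 (2.19), 460441 (1.92) and 582922 (1.14, log2 fold changes). Among these 6, levels in late caps were highest for 638550 and reached 624, 526 and 516 CPM for 460441 and 50.3, 55.8 and 54.2 CPM for 582922.

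Expansin-like proteins, which loosen cell walls in plants without cutting them, rose in 4 of 6 members (median 1.69), while the other 2 were not called, and of the 5 also in tables not chosen by stage 4 rose. Gene model 323571 was low in early caps, at 2.56, 2.76 and 2.598 CPM, and reached 172, 177 and 160.4 CPM in late caps. Its medium caps, at 68.05, 35.97 and 11.6 CPM, were spread between the groups, and its log2 fold change was 6.01 (SE 0.53, adjusted p = 9.61e-07). The abundant members 243825 and 306030 rose less. They were at 460.3, 389 and 397 CPM and 505, 514 and 488 CPM in early caps and at 1855, 1720 and 1680 CPM and 1671, 1403 and 1377 CPM in late caps, again without overlap (log2 fold changes 2.08 and 1.56). The least abundant of the 4, 313260, rose by 1.82 on the same scale.

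Chitinases of family GH18, which cut chitin, rose in 4 of 7 members (median 1.35), and of the 6 also in tables not chosen by stage 4 rose. Gene model 231399 rose from 1.36, 1.77 and 1.09 CPM over 7.32, 6.22 and 2.91 CPM in medium caps to 24.6, 21.98 and 20.98 CPM in late caps, by 4.0 on the log2 scale (SE 0.31, adjusted p = 3.99e-07). Gene model 585735 rose from 2.13, 2.003 and 1.197 CPM to 21.9, 17.97 and 17.5 CPM and 191848 from 8.83, 7.96 and 10.96 CPM to 80.3, 70.9 and 69.3 CPM (log2 fold changes 3.44 and 2.99). In all 3 each late cap lay above each early cap, and the other called member, 310136, had a log2 fold change of 1.35. Of the other 3 members none was called, though 1 was below 0 at an unadjusted p under 0.05 and passed as lower without early cap 2. None of the 8 chitin deacetylases of family CE4, which turn chitin into chitosan, was called in either direction (median -0.27), 7 of them also in tables not chosen by stage, and 1 was below 0 at an unadjusted p under 0.05. Of 5 wall synthases, all also in tables not chosen by stage, 1 passed, the chitin synthase 188623, with 166, 177 and 169 CPM in early and 392, 354 and 355 CPM in late caps (log2 fold change 1.10), and without early cap 1 another passed as lower.

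Enzymes of beta-glucan were mixed. Of 18 members of family GH16, which cut or re-join beta-glucans, 4 rose and 3 fell (median 0.04), but of the 15 also in tables not chosen by stage 2 rose and 3 fell (median -0.09). The largest change among them was the fall of 309729 from 58.5, 62.1 and 47.4 CPM to 8.78, 9.36 and 9.19 CPM (log2 fold change -2.62, SE 0.26, adjusted p = 2.55e-06), with medium caps between, at 33.4, 37.1 and 39.8 CPM. The fall of 174636 (-1.23) was not called without early cap 2 or when any late cap was left out. Of 21 other gene models of beta-glucan, 5 rose and 2 fell (median 0.12), while of the 17 also in tables not chosen by stage 2 rose and 2 fell (median 0.07). Both that fell were below 1 CPM and lost the call when single libraries were left out. The family GH5 member 387953 had the largest rise among them, from 73.1, 61.5 and 49.5 CPM to 772, 648 and 656 CPM (log2 fold change 3.50, SE 0.31, adjusted p = 9.91e-07), and the GH128 member 379551 rose by 2.01 from 40.6, 59.6 and 38.7 CPM to 189.9, 184 and 186 CPM, with medium caps at 269, 267 and 98.9 CPM, so that medium caps 1 and 2 were the highest. A Kre9/Knh1 protein, 647030, whose yeast namesakes take part in the making of beta-1,6-glucan, rose from 13.5, 24.1 and 16.3 CPM to 905, 835 and 894 CPM (log2 fold change 5.61). Both thaumatin-like proteins, also in tables not chosen by stage, rose, 399641 by 1.56 and 192587 by 1.20 on the log2 scale.

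Hydrophobins moved in both directions. Of 5 with that annotation, all also in tables not chosen by stage, 2 fell and none rose, though 1 was above 0 at an unadjusted p under 0.05 and passed without early cap 2 or late cap 2, and of the 7 that carry a hydrophobin symbol 2 rose and 1, LbH11, fell. Gene model 624234 fell from 1300, 1837 and 1773 CPM over 883, 1211 and 914 CPM in medium caps to 68.2, 80.6 and 77.7 CPM in late caps (log2 fold change -4.44, SE 0.40, adjusted p = 1.03e-06). Every late cap lay far below every early cap, as it did for LbH11. LbH14 (318421) went the other way, from 24.7, 20.2 and 27.3 CPM over 284, 96.6 and 53.1 CPM to 504, 473 and 455 CPM (log2 fold change 4.31, SE 0.65, adjusted p = 0.000132), and so did LbH1 (399293) at a low level, with 4.19, 2.83 and 3.53 CPM in early and 10.8, 10.9 and 11.1 CPM in late caps (1.64). Between early and late caps the order of these hydrophobins changed, in CPM as well as relative to transcript length. LbH11 had a mean of 2657 RPKM in early and 13.9 RPKM in late caps, 624234 2659 and 109.9 RPKM, and LbH14 35.1 and 622 RPKM. In late caps LbH14 therefore stood above both hydrophobins that had been the higher ones in early caps.

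Of 30 secreted proteases 8 rose and 2 fell (median 0.16). The aspartic protease LbPR_A12 (191659) was at 53.4, 45.6 and 42.2 CPM in early caps, 610.3, 288 and 166 CPM in medium caps and 2850, 2620 and 2576 CPM in late caps. The stages followed each other without overlap, and its log2 fold change was 5.83 (SE 0.59, adjusted p = 3.08e-06). LbPR_A13 (191892) was higher at the start, at 488, 483 and 839 CPM, and reached 2938, 3913 and 3935 CPM (log2 fold change 2.58). LbPR_A3 (310997) rose by 2.27 and LbPR_A1 (302848) by 3.54 on the same scale, which makes 4 of the 19 proteases with a symbol. A secreted subtilase, 481040, a serine protease, rose from 2.98, 3.54 and 3.26 CPM to 131, 111 and 107 CPM (log2 fold change 5.15). The falls were those of 609683 (-1.48) and of 477836 (-1.36, not called without late cap 1).

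Several inhibitors of proteases were uneven among the early caps, with the most in early cap 3. The clitocypin 318727, an inhibitor of cysteine proteases, was at 1972, 622 and 6111 CPM in early caps, 995, 1411 and 783 CPM in medium caps and 5763, 4937 and 4970 CPM in late caps. Early cap 3 lay above all late caps and early cap 2 far below, so that the groups overlapped, and the log2 fold change of 0.85 was not called (adjusted p = 0.289), whereas it was 2.01 and called without early cap 3. Of 10 inhibitors tested 2 rose and 1 fell, and of the 9 also in tables not chosen by stage 1 rose and 1 fell. In all, 4 rose without early cap 3, while none rose without early cap 1, early cap 2 or late cap 1, and 1 without late cap 2 or late cap 3. Cospin2 (674342), named after inhibitors of serine proteases of *Coprinopsis cinerea*, was among the 2 that rose, at 102, 75.6 and 234 CPM in early and 434, 383 and 361 CPM in late caps (log2 fold change 1.52, adjusted p = 0.0252, early cap 3 again the highest early cap). The other was the clitocypin 293826, with a mean of 482.1 CPM (SD 387.9) in early and 1195 CPM in late caps (log2 fold change 1.31, adjusted p = 0.0496). Its call was lost without early cap 1, early cap 2 or any late cap, and with late caps 2 and 3 summed. Cospin1 (295829), with 332, 114 and 1189 CPM and 264, 386 and 395 CPM, was not called.

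Several transporters rose. All 7 oligopeptide transporters had a log2 fold change above 0 and 3 of them were called (median 0.74). Gene model 301981 rose from 34.4, 45.7 and 23.6 CPM to 358, 314 and 317 CPM (log2 fold change 3.25, SE 0.26, adjusted p = 4.09e-07), and 190652 and 250173 rose by 1.79 and 1.61. Of 11 sugar transporters 3 rose (median 0.07). The abundant one was 680250, with 32.4, 32.7 and 27.8 CPM in early, 189.9, 119 and 116 CPM in medium and 309.9, 292 and 286 CPM in late caps (log2 fold change 3.26). The other 2, 481001 and 696309, stayed below 3 CPM in every cap, and 696309 had no read in early caps 1 and 3. Of 6 aquaporins, channels for water and small solutes, 456764 rose from 22.4, 36.1 and 21.2 CPM to 128, 100.5 and 102 CPM (2.05) and 443240 from 12.5, 10.9 and 10.7 CPM to 43.01, 50.4 and 49.9 CPM (2.07, log2 fold changes), and the other 4 were not called. Of 16 amino acid transporters 3 rose and 1 fell, or 2 without early cap 3 (median 0.29), with the largest rise in 245329 (2.73). Of 15 metal transporters with a symbol, ZIP-A (180140) and ZIP-B (305445), of a family that carries zinc, rose by 2.24 and 1.88, and CTR-B (314154), of a family that carries copper, fell by 1.13 on the log2 scale. Without early cap 1, 2 metal transporters fell. Of 7 ammonium and nitrate transporters with a symbol, the nitrate transporter LbNrt (254042) rose by 1.73. The other 6 were not called, though LbAMT1.1b (255304) was at -0.55 with an adjusted p of 0.0219, under the fold change bound, LbAMT2.1 (300932) was above 0 at an unadjusted p under 0.05, and 1 of the 6 passed as lower without late cap 1.

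The enzyme with the largest change among oxidases was R3 (185727), a tyrosinase, the kind of enzyme that turns phenols into precursors of melanin. It was at 21.2, 19.5 and 17.3 CPM in early caps, 237, 138 and 106 CPM in medium caps and 664, 657 and 649.9 CPM in late caps. The stages did not overlap, and the libraries of a stage were close in early and late caps. Its log2 fold change was 5.09 (SE 0.38, adjusted p = 2.57e-07). The tyrosinase R1 (295069) was at 101, 29.9 and 403 CPM in early caps and 416, 644 and 644 CPM in late caps. Its early cap 3 again stood far above the other early caps, and it was not called unless that library was left out. Of 3 tyrosinases in all R3 alone was called, and the 1 also in tables not chosen by stage was not. Of 9 laccases of family AA1, which oxidize phenols, lcc10 (399752) rose from 15.01, 7.05 and 11.4 CPM to 60.4, 62.8 and 59.6 CPM (2.45), and the other 8 were not called, which are the 8 also in tables not chosen by stage. Of 9 oxidoreductases of family AA3, all also in tables not chosen by stage, 709721 and 448758 fell by 1.73 and 1.42 on the log2 scale, and 684961 rose (2.02), a call lost without early cap 1, early cap 2 or late cap 1. Of 25 heme monooxygenases, which include the cytochrome P450 enzymes, 4 rose and 4 fell (median -0.08). The rise of 323171 from 33.6, 39.5 and 35.03 CPM to 799.6, 684 and 692 CPM (log2 fold change 4.33) was the only one of these rises that was called without each early cap in turn, and 2 rose when any late cap was left out. Of 24 antioxidant gene models 4 rose and 2 fell (median 0.32), but 2 rose without early cap 2 or early cap 3 and 1 fell without early cap 2, late cap 1 or late cap 2. The fall of LbPrx2-Cys (174328, log2 fold change -1.003) lay at the threshold. Among other alternatives, its call was lost under DESeq2, under RLE scaling, with the 6 cap libraries alone and when any late cap was left out. LbCu/ZnSOD (303799), a superoxide dismutase, rose by 2.16, and LbMsrA (253748), which repairs oxidized methionine, fell from 543, 686 and 595 CPM to 185, 186 and 184 CPM (log2 fold change -1.72). LbNOXR (383559), whose name is that of a regulator of NADPH oxidase, fell by 1.56 on the log2 scale.

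Gene models of the cell cycle and DNA were lower at the median. Of 20, 5 fell and 2 rose (median -0.54). The DNA polymerases 593144 and 594011 fell from 5.76, 8.46 and 5.98 CPM and 7.08, 10.7 and 8.77 CPM to 2.12, 2.55 and 2.58 CPM and 3.49, 3.31 and 3.75 CPM (log2 fold changes -1.48 and -1.33). The septin 189236, of a family of filament proteins at sites of division and growth, fell from 527, 776 and 623 CPM to 245, 256 and 253 CPM (-1.35), and the other 2 septins were at -0.54 and -0.57, below 0 as well but not called. The members that rose were 399758 and 306176. The DNA-dependent ATPase, annotated with meiotic recombination, was at 5.94, 7.84 and 6.49 CPM in early, 45.6, 39.4 and 17.3 CPM in medium and 69.8, 67.2 and 69.6 CPM in late caps (log2 fold change 3.35, SE 0.31, adjusted p = 1.45e-06). The other, 306176, annotated with mitosis, has a HORMA domain, found in proteins of meiotic chromosome axes and of the mitotic checkpoint in yeast, and was at 9.601, 7.92 and 9.21 CPM, 30.6, 21.2 and 17.3 CPM and 74.3, 76.1 and 78.7 CPM (log2 fold change 3.10, SE 0.25, adjusted p = 4.09e-07). In both, early caps were lowest, medium caps between and late caps highest, with no overlap between stages. Of 6 cyclins, which drive or time kinase activity, 2 rose, and of the 2 also in tables not chosen by stage 1 rose. Gene model 449618, of the PHO80 kind, which in yeast acts in phosphate signalling, rose from 5.81, 5.14 and 3.13 CPM to 121, 95.8 and 99.4 CPM (4.49), and 583039 rose by 1.42. The fall of the cyclin 581783 (-1.03) was lost under DESeq2, under both other scalings, without the filter on low counts and with the 6 cap libraries alone. It was also lost without early cap 2, late cap 2 or late cap 3 and with late caps 2 and 3 summed.

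Chromatin and ribosome genes shifted slightly downwards, and few passed the fold change threshold. Of 70 chromatin factors with a symbol that were tested, 56 had a log2 fold change below 0 and the median was -0.40, with 8 that fell and none that rose. At an unadjusted p under 0.05, 36 were below 0 and 3 above. The largest falls were those of CHC16201 (178776), from 52.01, 55.2 and 56.7 CPM to 22.99, 18.8 and 19.4 CPM (-1.42), and of HAG16203 (384433, -1.39), whose symbol is that of a histone acetyltransferase. Of 46 ribosomal proteins, 39 were below 0 (median -0.53), while 2 rose and 2 fell, and 4 fell without early cap 1 or late cap 2. The 2 with a fall were 678398 (-1.25) and 675318 (-1.23). Of 20 histones with a symbol, HFO16203 (191150) and HTR16201 (246331) fell by 1.10 and 1.28, both with early cap 2 the highest early cap and not called without it. HTR16205 (191988) and HFO16210 (306722) rose by 1.04 and 1.34, the latter not called without early cap 1. Histones and ribosomal proteins have near-identical copies, whose reads may have been shared in mapping. Of 7 gene models of RNA silencing, the Argonaute genes AGO16204 (315429) and AGO16202 (311854) rose by 1.47 and 1.08.

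Of 78 transcription factors tested 17 rose and 5 fell (median 0.29), and of 105 protein kinases 22 rose and 9 fell (median 0.18). Among kinases, 246217 had the largest rise, from 3.31, 2.12 and 1.39 CPM to 91, 72.1 and 71.3 CPM (log2 fold change 5.11, SE 0.57, adjusted p = 7.91e-06). Gene models 387419 and 318864, also kinases, rose by 4.61 and 3.86. Among the 10 regulators known from fruiting of *Schizophyllum commune* and other fungi, LbMedA-2 (483117) rose. It was at 8.02, 5.61 and 6.71 CPM in early, 10.3, 6.61 and 7.08 CPM in medium and 58.2, 51.6 and 49.2 CPM in late caps, so that the medium caps were still near the early ones and the late caps well above (log2 fold change 2.97, SE 0.21, adjusted p = 2.57e-07). LbNsdD (585421), a GATA-type factor, rose by 1.22 on the log2 scale. The other 8 did not pass, with log2 fold changes from -0.68 for LbWC2, a partner of the blue light receptor, to 0.38 for LbPriB. LbFst3 and LbFst4, which in *S. commune* act on the number and the onset of mushrooms, were at -0.02 and -0.28.

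Of 10 gene models that match genes of *C. cinerea* development 3 rose and 1 fell, and of the 5 also in tables not chosen by stage 2 rose. NsdD1 (668080) rose from 20.7, 15.05 and 17.2 CPM to 104, 87.04 and 82.96 CPM (log2 fold change 2.37, SE 0.21, adjusted p = 9.94e-07). A gene related to Velvet A (572498), part of a light-dependent regulator in other fungi, fell from 56, 56.3 and 68.95 CPM to 26.3, 28.6 and 28.8 CPM, with medium caps, at 26.4, 28.5 and 26.1 CPM, already as low as late caps (log2 fold change -1.11). The gene eln3 (331690), named for stipe elongation in *C. cinerea*, was at 317, 295 and 266 CPM in early and 183, 176 and 171 CPM in late caps (log2 fold change -0.73, adjusted p = 0.0986, not called). In stipes its mean was 165 CPM early and 36.2 CPM late, so that it did not mark the stipe in these libraries, and the share of other tissue in the caps was not tested. A C2H2 factor, LbCon7 (292045), was the transcription factor with the largest fall, from 138, 165 and 96.5 CPM over 49.3, 47.5 and 188 CPM to 19.1, 17.5 and 18 CPM. Medium cap 3 was above every early cap, the other medium caps were below, and all late caps were lowest (log2 fold change -2.87, SE 0.52, adjusted p = 0.000582).

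Small secreted proteins changed in both directions, with 61 higher and 21 lower of 227 tested (median 0.46). After 323571, the largest rise was that of 673503, from 34.9, 38.05 and 28.8 CPM over 1041, 598 and 205 CPM to 2192, 2104 and 2159 CPM (log2 fold change 5.99). Mycorrhiza-induced small secreted proteins, known from root colonization, were also seen in caps. Of 20 with a symbol that were tested, 3 rose and 2 fell (median 0.81), and 5 rose without late cap 3. MISSP23.4 (293729) was at 213, 181 and 266 CPM in early caps, 772, 639.6 and 208 CPM in medium caps and 2190, 1682 and 1616 CPM in late caps. Medium cap 3 was as low as the early caps, and the late caps were above all others (log2 fold change 3.06, SE 0.46, adjusted p = 0.000127). MISSP32.1 (300377) and MISSP16.5 (327918) rose by 1.40 and 1.72, and MISSP22.4 (303456) fell by 1.57 on the log2 scale. MISSP17.8 (332226) was below 1 CPM in every cap, and its fall was lost without early cap 1, early cap 3, late cap 1 or late cap 3. Among 224 gene models described as particular to *Laccaria*, 18 rose and 19 fell (median -0.04), shares of either side near those of all gene models.

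Of 8 lectins, proteins that bind sugars, 2 rose and 1 fell (median 0.31), and all 3 are among the 7 also in tables not chosen by stage. Gene model 386721 rose from 445, 600.3 and 393 CPM to 1665, 1755 and 1751 CPM (1.85), and the mannose-binding lectin 602176 fell from 37.6, 29.7 and 60.4 CPM to 4.98, 5.504 and 5.26 CPM (-3.02, log2 fold changes). Of 22 gene models of lipid metabolism 5 rose and 1 fell (median -0.01), and 2 fell without early cap 1, early cap 3 or late cap 1. The lipases 604520 and 666354 rose by 4.31 and 3.90, the former from 1.6, 1.46 and 1.53 CPM to 21.1, 35.2 and 34.7 CPM, with late cap 1 below the other late caps. Among genes that desaturate fatty acids, FAD12-3 (309734) and FAD12-1 (254799) fell by 1.95 and 1.5, whereas FAD12-5 (292603), the most abundant of these 3 per transcript length at 192 RPKM in early caps, rose by 1.32. Of 8 mating genes tested, Lbphb (313028) and Lbphb2 (313030) fell by 2.12 and 1.82 on the log2 scale. No member passed in either direction among 5 genes of glycolysis, 8 glutathione transferases and 5 of ergosterol, nor had any an unadjusted p under 0.05. None passed either among 10 genes of respiratory complex I, 8 of glycerolipids and 15 of N-glycosylation, of which 3, 4 and 4 were below 0 and 0, 1 and 2 above at an unadjusted p under 0.05, and in each of these last 3 groups 1 member was called when a single library was left out.

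**Figure D3:**
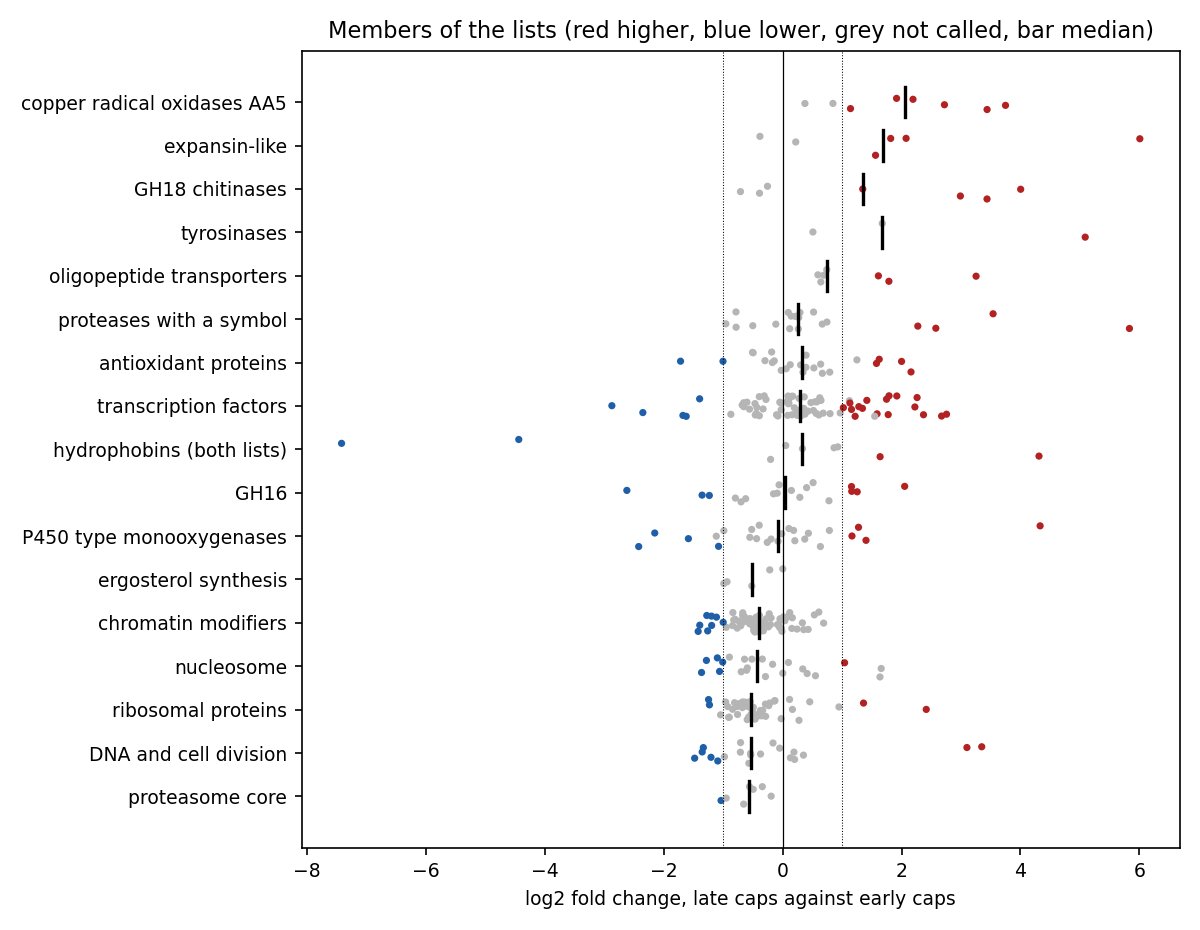
Log2 fold change of late against early caps (x axis) for the members tested of selected gene groups (y axis), with 1 point for each gene model and coloured points for those called. All 8 members of family AA5 lie above 0, while the ribosomal proteins lie mostly just below it, with a median of -0.53.

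By the number of calls, medium caps stood nearer to early than to late caps. Compared with early caps 335 gene models were called in medium caps, 2.03% of those tested (1.08% higher and 0.952% lower). Compared with medium caps 2470 were called in late caps, 15% of those tested (9.17% higher and 5.81% lower). These comparisons share libraries with that of late against early caps, and the medium caps varied most, with a biological coefficient of variation of 20.6% to 35.6% between pairs. For the 1528 risers the median log2 fold change was 0.35 from early to medium and 1.30 from medium to late caps, and for the 1009 fallers it was -0.29 and -1.07. The mean of medium caps lay between those of early and late caps for 72.8% of the risers and 74.2% of the fallers. Individual genes differed in when they moved. LbH11 changed by -3.48 from early to medium and by -3.94 from medium to late caps (log2 fold changes), 706368 by 0.25 and -6.05, 638550 by 0.49 and 3.26, R3 by 3.05 and 2.03, and 399758 by 2.34 and 1.01.

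Stipes of the same stages share no library with these caps. Caps and stipes were parted from each other at harvest, so that libraries of both may stem from the same basidiocarps, which the sources used here do not pair, and the interaction treated them as independent. From early to late, 3180 gene models were called in stipes, 19.3% of those tested (7.63% higher and 11.7% lower). Of the 1528 gene models that rose in caps 497 also rose and 45 fell in stipes, and of the 1009 that fell in caps 397 also fell and 4 rose. The difference between the changes, tested as an interaction, was called for 2384 gene models, 14.5% of those tested (9.84% more positive in caps and 4.62% more negative). It was called in the direction of the cap change for 595 of the risers (38.9%) and 187 of the fallers (18.5%), and the other way for 12 and 59. Since the risers and fallers were chosen on the cap libraries, which enter the interaction too, these shares describe them and are no test. LbPR_A13 rose by 2.58 in caps and was at -2.0 in stipes, a difference of 4.58 (adjusted p = 0.000568). LbCon7 fell in caps and was at 1.31 in stipes, a difference of -4.19 (adjusted p = 0.000974), and the lectin 386721 was at -1.57 in stipes against 1.85 in caps (difference 3.42, adjusted p = 0.00157). LbH11 was at -7.77 in stipes and -7.42 in caps (difference 0.35, adjusted p = 0.659). The L-aspartase-like 330474 was at 5.14 in caps and 4.79 in stipes (difference 0.35, adjusted p = 0.671), and for neither was the difference called.

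**Figure D4:**
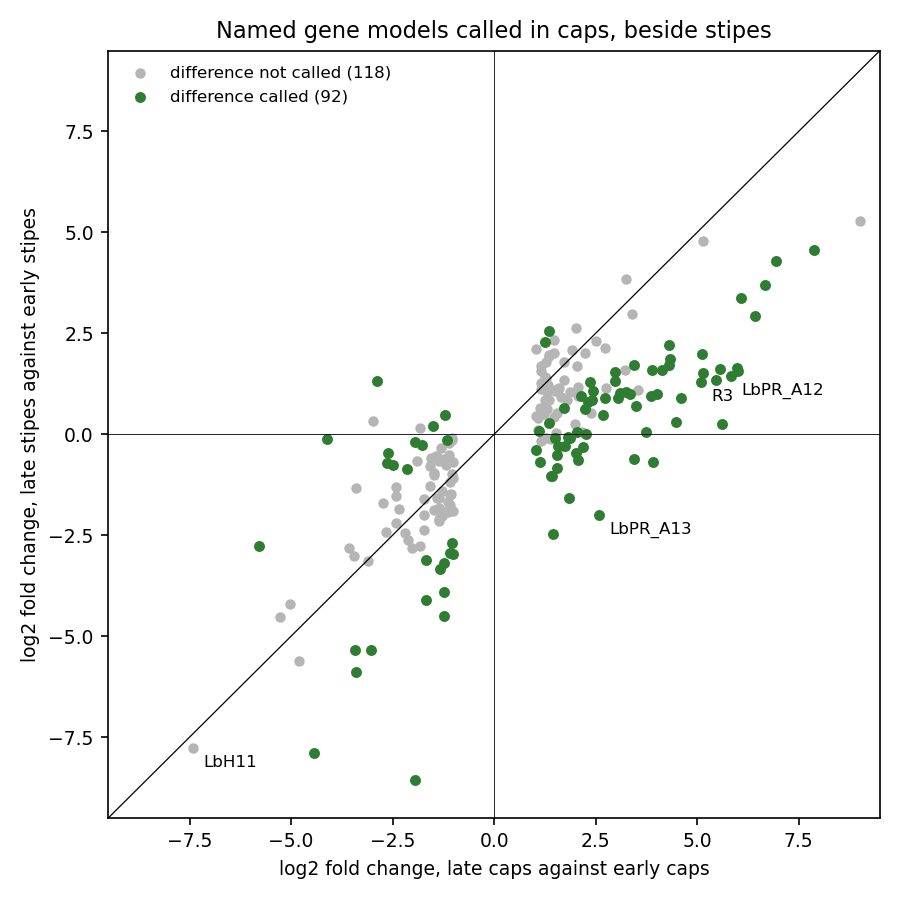
Log2 fold change of late against early caps (x axis) against that of late against early stipes (y axis) for the 210 called gene models that were named, with the line of equal change. The difference between tissues was called for 92 of them, which are coloured, and not for 118, and LbPR_A13 and LbCon7 (at -2.87 in caps and 1.31 in stipes) lie in quadrants of opposite sign.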

How the data were processed

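Counts of reads per gene model were deposited for each library, without normalization, beside RPKM values that the authors computed from them, the transcript length and the library size. Before that, the authors had trimmed reads and aligned them in CLC Genomics Workbench against v2 transcripts of *L. bicolor*, with several hits allowed per read. Whether unique or total reads were deposited, and whether strand was used, is not given in the sources used here, so near-identical or overlapping gene models may share reads. The length implied by count and RPKM was within 1% of the gene model's reference for 100.0% of values.

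Tools were edgeR 4.0.16, limma 3.58.1 and DESeq2 1.42.0 under R 4.3.3. Of 23130 gene models, filterByExpr kept 16485. Counts were scaled by TMM (factors 0.959 to 1.12 in early and late caps), and a quasi-likelihood model with a mean for each of the 6 groups took in all 18 libraries to estimate the spread. The change in caps minus that in stipes was tested as an interaction. P-values are from edgeR with Benjamini-Hochberg adjustment over all gene models tested. The SE of a log2 fold change is its size divided by the square root of the quasi-likelihood F statistic. It thus rests on the spread over all 18 libraries and is not the spread of the 6 caps compared. Depth was 38976106 to 90888294 reads per library. At low levels precision is limited by counting error. The model was tested on simulated data.

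The members and lists were chosen with earlier results of these data known. Lists came from annotations in the study's supplementary tables, at hand only in part, and 19 from RefSeq symbols, the latter made once the files were at hand. RefSeq genes (18261, assembly V1.0) were matched by number to 6580 gene models, 351 of which gained a symbol. For 4392 matches with enough reads, transcript length was at most 1.011 times gene length. Named were the 10 largest rises and falls without overlap at 10 CPM or more among gene models with a functional annotation. A listing as a small secreted protein alone did not count as one. The 2 largest rises and falls were named whatever their annotation. From each list came the called members with the largest rise and largest fall, and the most abundant member, called or not. All fruiting regulators, literature genes, aquaporins, clitocypins and MiSSPs were named, as were all members of lists of at most 5. Not every gene model named in this way is given in the text. Gene models named beyond this rule were chosen after their values were seen. As alternatives, the analysis was rerun with RLE scaling, with DESeq2, with TMM factors made without the 50 most abundant gene models and with other filters. It was also rerun with the 6 cap libraries alone, with replicate number as a blocking factor, with late caps 2 and 3 summed and with other thresholds. Early and late libraries, but no medium ones, were left out in turn, those of stipes for the interaction only. Sequences and coordinates were not used here.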

Additional observations from a re-analysis of the deposited data

Results flagged for a closer look

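For 46 gene models named by the rule, the change from early to late caps differed from that in stipes by the interaction test (log2 difference above 1 in size, adjusted p under 0.05, quasi-likelihood test of edgeR), against 14.5% of all gene models tested. These were named for their change in caps, so that their number is no finding, and no cause of the differences was tested. Values are the log2 fold change in caps minus that in stipes, from 3 libraries for each stage and tissue.

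Among wall and surface proteins the difference was 5.35 for the Kre9/Knh1 protein 647030, 4.44 for the expansin-like 323571, 3.70 for the AA5 oxidase 638550, 3.01 and 1.45 for the chitinases 231399 and 191848, 2.79 for the GH5 member 387953, 2.08 for the thaumatin-like 399641 and 1.01 for the chitin synthase 188623. It was -2.16 for the GH16 member 309729 and 1.92 for 661527, both of which fell in caps. The hydrophobins LbH14 (318421) and 624234 had differences of 2.60 and 3.46. Of these, 624234 fell in both tissues, by 4.44 in caps and with a log2 fold change of -7.90 in stipes.

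Proteases were apart as well, with 4.58 for LbPR_A13 (191892), 4.39 for LbPR_A12 (191659), 3.64 for the subtilase 481040 and 3.32 for the aspartic protease 483465. For LbPR_A13 the 2 tissues went in opposite directions, since it was at 698, 411 and 529 CPM in early and 203, 110.4 and 95.4 CPM in late stipes. The difference was 3.79 for the tyrosinase R3 (185727), 1.39 for lcc10 (399752), 2.46 for the monooxygenase 323171 and 2.97 for the dehydrogenase/reductase 256071. Transporters with a difference were 245329 for amino acids (1.85), the aquaporin 456764 (2.00) and the ABC transporter 671922 (1.96).

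Among regulators, the difference was -4.19 for LbCon7 (292045), 4.12 for the zinc finger protein 453082, 3.13 for the kinase 246217, 1.64 for LbMedA-2 (483117) and 1.08 for NsdD1 (668080). LbCon7 was at 12.8, 10.02 and 5.999 CPM in early stipes and 21.01, 24.2 and 26.3 CPM in late stipes, so that late stipes held more and late caps less. The cyclins 449618 and 581783 had differences of 4.18 and 1.67, the ATPase 399758 annotated with meiotic recombination 2.34, the RNA recognition motif protein 297745 3.51 and the ribosomal proteins 678398 and 612464 1.94 and 1.57. The DUF89 protein 568771 had 3.96, the ubiquitin-conjugating protein 709326 1.06 and LbTsp2-A (322707) 2.40.

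Small secreted and other proteins make up the rest. The difference was 2.16 for MISSP23.4 (293729) and -4.00 for the small secreted 316267, which was at 12.5, 10.2 and 5.82 CPM in early and 7.83, 10.7 and 7.95 CPM in late stipes. It was 3.42 for the lectin 386721 and 2.31 for the lectin 602176. In lipid genes it was 2.09 for the lipase 604520, -1.76 for FAD12-3 (309734) and -1.02 for THIK-2 (300690). The *Laccaria*-specific 611637 had 2.56, and 706368, with no known function, had -3.02.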

How the results depend on the processing

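The counts of 1528 gene models higher, 1009 lower and 2384 with a called interaction moved most with the threshold. A test against the fold change threshold itself (glmTreat) left 519, 170 and 408, a log2 fold change above 2 left 484, 146 and 614, and no minimum fold change gave 2807, 3099 and 3585. With an adjusted p under 0.01 the interaction was called for 1429. Leaving out each early or late cap in turn gave 1403 to 1586 higher (fewest without early cap 3) and 740 to 945 lower (fewest without late cap 3). For the interaction, early and late stipes were left out in turn as well, which gave 1860 to 2705. No medium cap or medium stipe was left out, so their weight in the estimate of the spread was not tested. All other alternatives stayed within 1.5 times the counts, among them DESeq2 with 1675, 926 and 2615 and late caps 2 and 3 summed into a single library with 1599, 728 and 2041. Of 210 named gene models that were called, 171 kept the call in each of 14 alternatives and none changed direction. These 14 did not include glmTreat or the other thresholds, under which the named calls were not followed.

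Whether the replicate numbers pair early with late caps is not known. The deviations of same-numbered early and late caps correlated at 0.052, 0.061 and -0.089. Those of caps with unlike numbers correlated at -0.141 to 0.084. With so few libraries, such correlations cannot exclude a pairing. With the replicate number as a block, 1517 were higher, 971 lower and 2273 had an interaction, and 6 named calls were lost and 1 gained. Other scalings moved the median of all gene models from -0.05 to at most 0.0. Depth limits the gene models below 1 CPM, such as MISSP17.8, whose calls rest on few reads.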

Other observations

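Gene groups not described above held further changes between early and late caps. Enzymes of trehalose and glycogen went both ways, with 1 of 9 higher and 2 lower (median log2 fold change -0.02). Gene model 318750 fell from 406, 314 and 307 CPM to 111, 85.7 and 92.9 CPM (-1.83) and 699825 fell by 1.31 on the log2 scale, while the call of 245054 as higher was lost without early cap 2, early cap 3 or any late cap. Of 10 secreted lipases 2 rose, with the larger rise in 186182 from 18.4, 17.05 and 15.4 CPM to 47.96, 46.98 and 47.97 CPM (1.49), and 2 fell, with the larger fall in 332497 from 31.5, 46.8 and 41.02 CPM to 11.9, 12.2 and 12.1 CPM (-1.72, log2 fold changes). In each of these examples the late caps lay on 1 side of all early caps.

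Of 18 protein folding genes 12 were below 0 (median -0.44), yet the largest change was the rise of 705715, an isomerase of the FKBP type, from 101, 36.4 and 38.2 CPM over 155, 81.5 and 25.9 CPM to 514, 562 and 565 CPM (log2 fold change 3.22, adjusted p = 0.000525). Early cap 1 was above the other early caps, and all late caps were above every early and medium cap. All 7 proteasome core genes were below 0 (median -0.56) but only 241730 was called, a call that DESeq2 did not make. Of 22 ABC transporters, 671922 rose from 189, 102 and 107 CPM to 523, 463 and 459.6 CPM (1.86, log2 fold change) and had its lowest levels in medium caps, at 48.97, 27.3 and 53.5 CPM. The calls of 3 ABC transporters as lower were all lost without early cap 1, late cap 2 or late cap 3.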
